A study of Mus musculus with 4 samples.

Results

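The genes described here are 8 myeloid C-type lectin receptors of the mouse, Clec4a1, Clec4a2, Clec4a3, Clec4d, Clec4e, Clec4n, Clec7a and Clec5a, out of 54532 genes measured by RNA sequencing of total RNA. They were chosen by name, as genes of the Clec4 cluster and related Dectin genes, and selected on their FPKM values in treated against control libraries, which were already known. Their fold changes are therefore given as a description, with no test, and support nothing beyond the values themselves. The libraries came from CB6F1 mice, an F1 hybrid strain, and from cells labelled MSCs that had been obtained by digestion of whole bone marrow and grown in serum-containing medium. All 4 sample titles carry the term aGVHD, so the control libraries share it. The 2 R libraries came from cells given R, an agent that the labels do not describe further, at 0.5 µM (the unit is written "um"), and the 2 vehicle libraries from cells that received DMSO, the solvent. Replicates are numbered in the titles without a word on whether they are separate animals or cultures, so every spread below may be technical.

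C-type lectin receptors are surface proteins of macrophages, dendritic cells and neutrophils that bind sugars and lipids of fungi, mycobacteria and dying cells. The activating members signal through immunoreceptor tyrosine-based motifs, either in an adaptor (the Fc receptor gamma chain, encoded by Fcer1g, or DAP12, encoded by Tyrobp) or in their own tail, to the kinase Syk and the CARD9 complex. Inhibitory members carry a motif that recruits phosphatases such as SHP-1, encoded by Ptpn6.

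The libraries held macrophage transcripts beside stromal ones. Of 27 macrophage and monocyte markers, 26 had a mean of at least 1 FPKM (a read abundance per gene length and library size), the minimum for testing. Summed over the list, R replicates 1 and 2 held 16413 and 12804 FPKM and vehicle replicates 1 and 2 held 24246 and 21775 FPKM. Most of each sum was Lyz2 alone, at 8891 and 7061 FPKM in R and 14569 and 12540 FPKM in vehicle. Of 23 mesenchymal stromal markers 21 were tested, with Cxcl12 between 462 and 517 FPKM, while Lepr and Thy1 stayed below 1 FPKM in each library. Of 12 neutrophil markers 6 were listed at 0 in all libraries, among them Ly6g, Mpo and Elane. Only 2 were tested, Csf3r at 10.6 to 19.7 FPKM and Camp at 1.12 to 1.85 FPKM. Of 12 T, NK and B cell markers 6 were likewise at 0 in all libraries, and of 10 dendritic cell markers 1 was tested. Recovered reads numbered 16570419 to 18140519 per library. FPKM summed to 287360 in R replicate 2 and to 333130 to 345709 elsewhere. In bulk RNA, fewer macrophages and less of a transcript per macrophage cannot be told apart, which applies to each lectin below.

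All 8 genes lie on chromosome 6 in the GRCm38 annotation of GENCODE M21. The 6 Clec4 genes lie within 368 kb, from the start of Clec4a1 (122921848 to 122934619) through Clec4a3 (122952515 to 122969875), Clec4a2 (123106428 to 123143999), Clec4n (123229843 to 123247021) and Clec4d (123262111 to 123275265) to the end of Clec4e (123281789 to 123289870). Clec7a lies at 129461591 to 129472779, where the annotation lists it as a polymorphic pseudogene, and Clec5a at 40574894 to 40585821. Clec4e, Clec7a and Clec5a are on the minus strand and the others on the plus strand. The Clec4a genes are close relatives, but in the annotated transcripts shared stretches were few. Of the 50-base words in Clec4a2 transcripts 6.69% also occur in another gene, mostly Clec4a4, so its value is slightly uncertain. The share was 0.686% for Clec4n, with Gm44147, and none was found for the other 6 genes.

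The 250 bases before the RefSeq start of 4 of the genes (build GRCm38.p6) are shown because they span the largest and the smallest fold change of the 8 and include a pair of neighbouring paralogues. Capitals mark GAGGAA or its reverse complement TTCCTC, the core that the macrophage factor PU.1 binds. Clec4e is at chr6:123289872-123290121 on the minus strand, Clec4a1 at chr6:122921598-122921847 and Clec4a3, from the downstream of its 2 listed starts, at chr6:122952394-122952643 on the plus strand, and Clec5a at chr6:40585806-40586055 on the minus strand.
Clec4e: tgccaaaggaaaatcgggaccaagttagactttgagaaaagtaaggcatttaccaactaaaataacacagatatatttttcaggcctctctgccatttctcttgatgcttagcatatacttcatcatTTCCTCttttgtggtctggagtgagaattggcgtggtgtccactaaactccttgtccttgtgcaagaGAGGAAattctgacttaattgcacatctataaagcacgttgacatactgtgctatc
Clec4a1: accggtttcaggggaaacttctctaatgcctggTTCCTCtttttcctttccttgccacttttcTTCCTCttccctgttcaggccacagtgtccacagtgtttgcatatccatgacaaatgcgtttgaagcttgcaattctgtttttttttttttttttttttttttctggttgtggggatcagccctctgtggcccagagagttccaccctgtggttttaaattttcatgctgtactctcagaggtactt
Clec4a3: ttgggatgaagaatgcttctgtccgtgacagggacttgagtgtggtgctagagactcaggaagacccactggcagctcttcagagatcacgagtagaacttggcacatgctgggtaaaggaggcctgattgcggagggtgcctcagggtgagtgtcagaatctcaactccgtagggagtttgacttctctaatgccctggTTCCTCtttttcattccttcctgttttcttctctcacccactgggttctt
Clec5a: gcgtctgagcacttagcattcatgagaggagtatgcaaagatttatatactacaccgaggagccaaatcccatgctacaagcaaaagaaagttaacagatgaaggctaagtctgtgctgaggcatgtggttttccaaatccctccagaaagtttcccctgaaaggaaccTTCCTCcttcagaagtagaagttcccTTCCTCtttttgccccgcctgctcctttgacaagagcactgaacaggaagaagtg

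The core was present in 2 copies in Clec4e, Clec4a1 and Clec5a and in 1 copy in Clec4a3. For Clec4a3 this holds at the downstream start only, as the window of its upstream start held 0 copies. Clec4a1 and Clec4a3 share an identical run of 17 bases around it, cctggttcctctttttc, the longest run shared between the promoter windows of any pair of the 7 genes that have one. RefSeq windows, from 250 bases before to 50 bases after a start, were available for 7 of the genes (Clec4n is named only). The core was in a window of 6 of these 7, all but Clec4a2, and in a window of 30.5% of the 8894 tested genes that matched. Over all 32851 windows of this length the share was 28.3%. The only Clec4a2 window, 123122440 to 123122739, lies inside the gene as annotated in GENCODE. The annotated start at 123106428 was not searched, so matches given for Clec4a2, or their absence, refer to that window only. An interferon-type element, GAAA and GAAA with any 2 bases between, was found in Clec4d alone, overlapping a PU.1 core at the start of transcription, and in 3.44% of all windows. The C/EBP form TTNCNNAA was found in 4 of 7 genes (40.7% of all windows). The STAT element TTCNNNGAA and the AP-1 element TGANTCA were each found in 1 of 7, Clec4a2 (8.30% and 7.81% of all windows). The NF-kB form, GGG and TTTCC with any 2 bases between, was in none of the 7 and in 1.63% of all windows. Counted by gene, as for the 7, the shares of tested genes were 3.71% (interferon-type), 35.3% (C/EBP), 7.94% (STAT), 5.96% (AP-1) and 2.06% (NF-kB). All were searched on both strands, and these are matches of letters only.

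All 8 lectin transcripts were lower in R. The fold changes are differences of log2(FPKM + 1), a scale on which those of low genes are understated. Their median was -0.98, against a median of 8.3e-05 over the 12176 genes tested. The 8 genes summed to 278 and 217 FPKM in R replicates 1 and 2, against 528 and 477 FPKM with vehicle. In all 8 genes both R libraries were below both vehicle libraries, which held for 25.2% of tested genes. A log2 fold change of -0.5 or below was found for 7 of the 8, all but Clec5a, and for 5.83% of tested genes. Since this contrast was known when the genes were chosen, nothing is read from these counts.

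**Figure D1:**
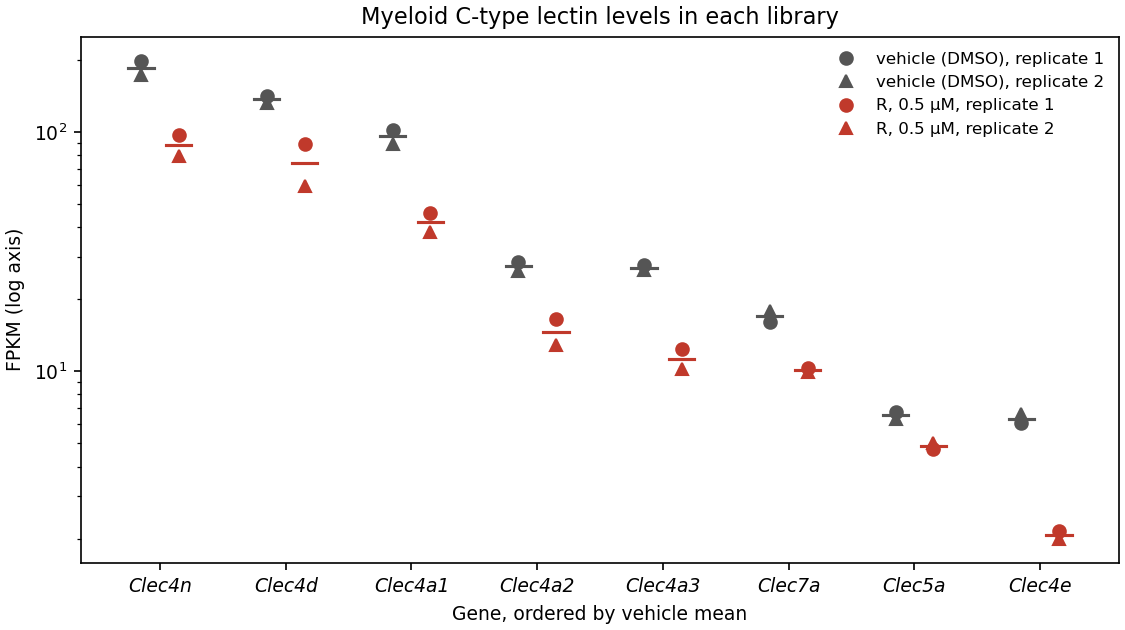
FPKM (log axis) of the 8 lectin genes in each library, ordered by vehicle mean, with circles for replicate 1, triangles for replicate 2 and bars for group means of 2 libraries. Both red R points lie below both grey vehicle points in every gene, and R replicates 1 and 2 of Clec4d are the farthest apart, at 89.2 and 59.3 FPKM.

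Clec4a1, Clec4a2 and Clec4a3 belong to the group of dendritic cell immunoreceptors, named DCIR, and of the 3 it is Clec4a2 whose protein carries an inhibitory motif. Clec4a2 was at 16.5 and 12.8 FPKM in R replicates 1 and 2 and at 28.5 and 26.4 FPKM in the vehicle libraries. The R mean was 53.5% of the vehicle mean, a log2 fold change of -0.87 (SE 0.153). Clec4a1 was more abundant, at 45.7 and 38.0 FPKM in R and 102 and 89.3 FPKM in vehicle. Its R mean was 43.7% of the vehicle mean (log2 fold change -1.18, SE 0.155). Clec4a3 was at 12.3 and 10.2 FPKM in R and 27.8 and 26.4 FPKM in vehicle, a log2 fold change of -1.20 (SE 0.136). Clec4a2 and Clec4a3, nearly equal in vehicle at means of 27.4 and 27.1 FPKM, were apart in R, where the lower Clec4a2 value exceeded the higher Clec4a3 value.

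Clec4n, Clec4d and Clec4e encode Dectin-2, Dectin-3 and Mincle, receptors that signal through the Fc receptor gamma chain and bind fungal mannans and mycobacterial glycolipids. Clec4n was the most abundant of the 8, at 97.3 and 79.2 FPKM in R replicates 1 and 2 and 199 and 172 FPKM in vehicle. Its mean was 2.10-fold lower in R, with a log2 fold change of -1.07 (SE 0.168). Clec4d was at 89.2 and 59.3 FPKM in R and 142 and 132 FPKM in vehicle. Its R replicates differed the most of the 8 genes, replicate 2 standing at -33.6% against replicate 1, and its log2 fold change of -0.90 (SE 0.215) became -1.19 without R replicate 1 and -0.61 without R replicate 2. Clec4e was the least abundant, at 2.15 and 1.99 FPKM in R (206 and 179 recovered reads) and 6.06 and 6.60 FPKM in vehicle (531 and 588 reads). It had the largest difference of the 8, a 3.06-fold lower mean, beside 1.84-fold for its neighbour Clec4d. Its log2 fold change of -1.25 (SE 0.126) was -1.57 with a pseudocount of 0.1 FPKM and -1.61 with voom on recovered reads.

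Clec7a encodes Dectin-1, the receptor for fungal beta-glucan, which carries its own activating motif. It was at 10.3 and 9.93 FPKM in R replicates 1 and 2 and at 16.1 and 17.8 FPKM in vehicle, a 1.68-fold lower mean (log2 fold change -0.69, SE 0.120). Clec5a encodes a receptor that couples to DAP12. It had the smallest difference, at 4.75 and 5.02 FPKM in R and 6.78 and 6.31 FPKM in vehicle, 1.34-fold (log2 fold change -0.36, SE 0.120). Clec5a was also the only one of the 8 in which R replicate 2 exceeded R replicate 1. On a TPM scale, which sets all libraries to an equal sum, R replicate 2 was the lower R library in 5 of the 8.

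The order of mean levels, Clec4n, Clec4d, Clec4a1, Clec4a2, Clec4a3, Clec7a, Clec5a and Clec4e, was the same in both groups. In vehicle the neighbours Clec4a2 and Clec4a3 overlapped, as did Clec5a and Clec4e, at 6.55 ± 0.327 and 6.33 ± 0.380 FPKM (n = 2 each, SD). In R, Clec5a and Clec4e were apart, at 4.89 ± 0.194 and 2.07 ± 0.111 FPKM (SD, n = 2 each), while Clec4n overlapped with Clec4d and Clec4a3 with Clec7a.

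**Figure D2:**
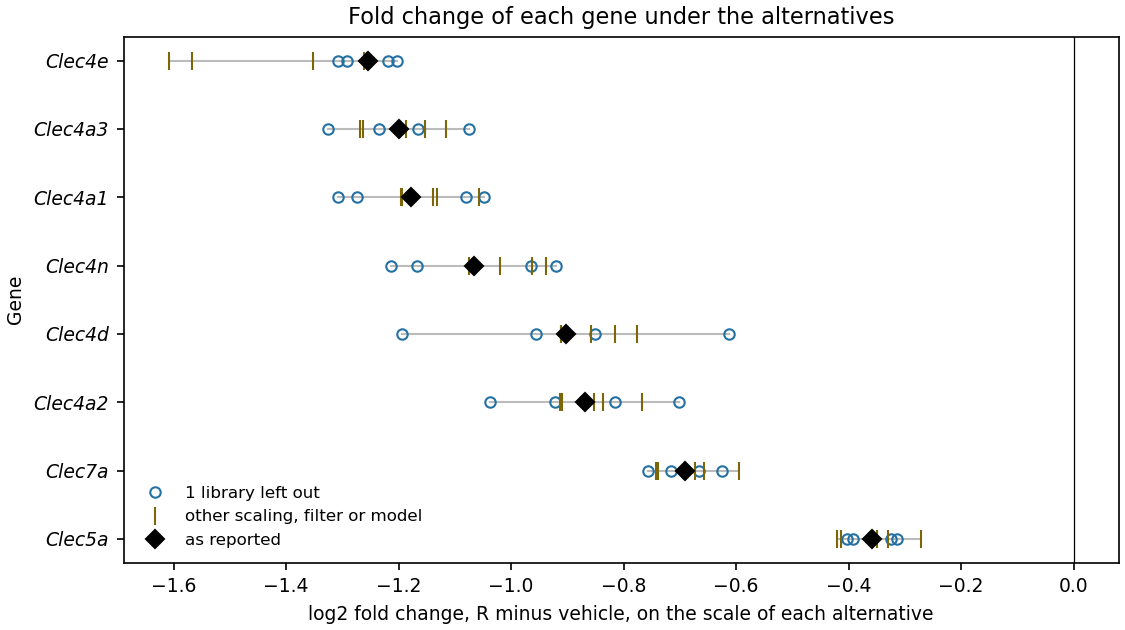
Log2 fold change of R minus vehicle for each lectin gene, as reported (diamonds), with 1 library left out (circles) and under the other 7 alternatives of scaling, filter or model (ticks). Every value lies below 0. For the circles this was fixed in advance, as both R libraries were below both vehicle libraries in every gene. The ticks for no filter and for the replicate block repeat the diamonds. Clec4d has the widest spread when a library is left out, from -1.19 to -0.61.

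Levels of the lectins were also set against macrophage genes within each library. Csf1r, the receptor for the macrophage growth factor, and Adgre1, which encodes F4/80, were not called, at log2 fold changes of -0.26 and -0.13 (Benjamini-Hochberg adjusted p = 0.496 for Csf1r and adjusted p = 0.74 for Adgre1 in limma). Clec4n amounted to 22.5% and 18.9% of the Csf1r level under R, in replicate order, and to 38.2% and 34.3% under vehicle. Clec4e amounted to 0.497% and 0.476% in R and to 1.17% and 1.32% in vehicle. For Clec5a the values were nearly level, 1.10% and 1.20% in R and 1.30% and 1.26% in vehicle. Against each of the 26 tested macrophage markers in turn, the ratio of Clec4e to the marker was lower in both R libraries than in both vehicle libraries for 25 markers, and that of Clec4a3 for 22. The number was 21 for Clec4a1, 19 for Clec4n, 16 for Clec4a2, 15 for Clec4d, 12 for Clec7a and 5 for Clec5a, whose ratio was higher in both R libraries for 10 markers. Over all tested genes the median number of markers was 0. At least 25 markers were reached by 0.772% of tested genes, at least 22 by 1.24%, at least 12 by 2.93% and at least 5 by 7.24%. As the 8 genes were selected on lower values in R, nothing is read from their numbers. The marker list itself had a median log2 fold change of -0.56, and 24 of its 26 tested genes were below 0. Its part in the lower lectin levels was not tested.

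Of the macrophage markers 4 fell in limma at a Benjamini-Hochberg adjusted p under 0.05, which 1.37% of tested genes did. They were Fcgr1, the high-affinity IgG receptor, at 10.1 ± 2.08 FPKM with R and 40.0 ± 0.867 FPKM with vehicle, the protease gene Ctss, the toll-like receptor partner Ly86 and the scavenger receptor Msr1 (log2 fold changes -1.90, -1.30, -1.11 and -0.85). The calls of Ctss and Msr1 were lost without either vehicle replicate, and that of Msr1 also on the TPM scale. Voom called 7 markers lower, where 1.95% of genes in that fit were called lower and 0.698% higher, and limma called 11 with the gene length trend removed. The limma count was 14 without R replicate 1, 9 without R replicate 2, 2 without vehicle replicate 1 and 3 without vehicle replicate 2. Lyz2 and Ptprc, at log2 fold changes of -0.77 and -0.53, were not called (adjusted p = 0.321 and adjusted p = 0.179), but both passed with the length trend removed (adjusted p = 0.0388 and adjusted p = 0.0374). Among the neutrophil markers Csf3r, the receptor for G-CSF, which macrophages also express, fell by 0.75 on the log2 scale. That call was lost on the TPM scale and without either vehicle replicate. Of the 21 stromal markers 1 fell, the surface antigen Ly6a (log2 fold change -1.71), and the list median was 0.21. Limma called 0 of them higher, with 5 higher at an unadjusted p under 0.05, and voom also called 0 higher. Without R replicate 1 limma called 5 higher (Col1a1, Col1a2, Ebf1, Pdgfrb and Prrx1), without R replicate 2 it called Col1a1 and Col1a2, and with the length trend removed Col1a1 and Pdgfrb. Col1a1, the main chain of bone collagen, was also called on the TPM scale and after quantile normalization, at 823 ± 40.9 FPKM with R and 529 ± 4.73 FPKM without (SD, n = 2 each).

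Among the adaptors and signalling genes of these receptors the median log2 fold change was -0.22. Of 41 such genes 40 were tested, and 31 were below 0. Limma called 0 of them, with 9 lower and 3 higher at an unadjusted p under 0.05 (8.83% and 7.16% of all tested genes), and voom on recovered reads called 1, Blnk, lower. Fcer1g, the adaptor of Clec4n, Clec4d and Clec4e, was at 607 and 412 FPKM in R replicates 1 and 2 and at 1009 and 838 FPKM in vehicle. Its log2 fold change of -0.88 (SE 0.249) missed the threshold (Benjamini-Hochberg adjusted p = 0.173 in limma). It passed without R replicate 1 (adjusted p = 0.025), after quantile normalization (adjusted p = 0.0322) and after removal of a gene length trend (adjusted p = 0.0374). Tyrobp, the adaptor of Clec5a, was at 551 and 382 FPKM in R and 670 and 612 FPKM in vehicle (log2 fold change -0.48). Blnk, a linker protein downstream of Syk, had a log2 fold change of -0.74. Syk, Card9 and Ptpn6 were not called, at log2 fold changes of -0.25, -0.33 and -0.42. Without R replicate 1, Tyrobp and Ptpn6 passed (adjusted p = 0.0325 and adjusted p = 0.033), and Blnk passed without either R replicate and with the length trend removed.

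Of 56 other C-type lectin receptor genes 17 were tested and 16 were listed at 0 in all libraries. Limma called 0 of the 17, with 4 lower and 3 higher at an unadjusted p under 0.05. The median log2 fold change was -0.19. Voom called Clec2d and Cd72 lower and Cd248 and Thbd higher. Clec2d, a ligand of an NK cell receptor, was at 28.8 ± 3.89 FPKM with R and 51.7 ± 0.427 FPKM without (SD, n = 2 each, with a Benjamini-Hochberg adjusted p = 0.0559 in limma). Cd72, an inhibitory receptor of B cells and macrophages, was at 16.2 ± 2.80 and 30.6 ± 1.81 FPKM (SD, n = 2 each, with a Benjamini-Hochberg adjusted p = 0.0569 in limma). Without R replicate 1 limma called 4 lower and 4 higher, and without R replicate 2 it called 3 lower and 3 higher. The macrophage mannose receptor gene Mrc1 had a log2 fold change of -0.19, from 192 and 267 FPKM in R to 247 and 268 FPKM in vehicle. Clec10a, a galactose-binding lectin of macrophages, had one of -0.43. Neither was called, but Clec10a passed without R replicate 1 (adjusted p = 0.0407).

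**Figure D3:**
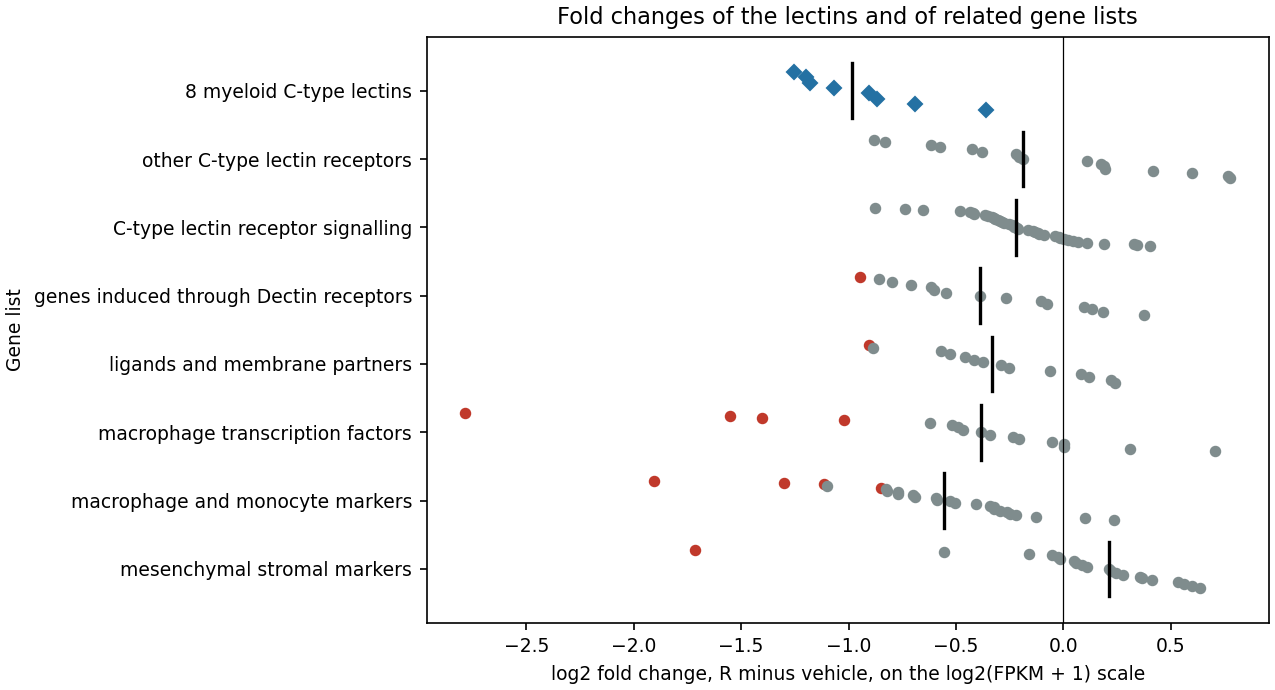
Log2 fold changes (R minus vehicle, log2(FPKM + 1) scale) of the 8 lectins (blue diamonds) and of the tested genes of 7 lists (circles, red where limma's adjusted p was under 0.05), with a black bar at each median. The medians of the lectins, of the macrophage markers and of the receptor signalling genes are -0.98, -0.56 and -0.22.

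Few other genes around the lectins reached the minimum of 1 FPKM. The Clec4 interval held 7 other annotated genes, of which 3 are protein-coding. Only Clec4b1, an activating relative of the DCIR group, was tested, at 1.52 and 0.353 FPKM in R and 1.88 and 0.995 FPKM in vehicle, and it was not called. Clec4a4 was at 0.171 ± 0.0409 FPKM with R and 0.329 ± 0.465 FPKM without (SD, n = 2 each). Within 250 kb of Clec7a 3 of 27 other genes were tested and limma called 0, while 2 had an unadjusted p under 0.05 and voom also called 0. The myeloid inhibitory receptor gene Clec12a was at 22.6 and 19.5 FPKM in R and 33.1 and 32.2 FPKM in vehicle (log2 fold change -0.61; limma, Benjamini-Hochberg adjusted p = 0.0943). It passed without R replicate 1 (adjusted p = 0.0232) and without R replicate 2 (adjusted p = 0.0427). The autophagy gene Gabarapl1, on the other side, was at 58.0 ± 5.33 and 60.9 ± 3.48 FPKM (SD, n = 2 each). Within 250 kb of Clec5a 2 of 13 other genes were tested and limma called 0, while 0 had an unadjusted p under 0.05 and voom also called 0.

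**Figure D4:**
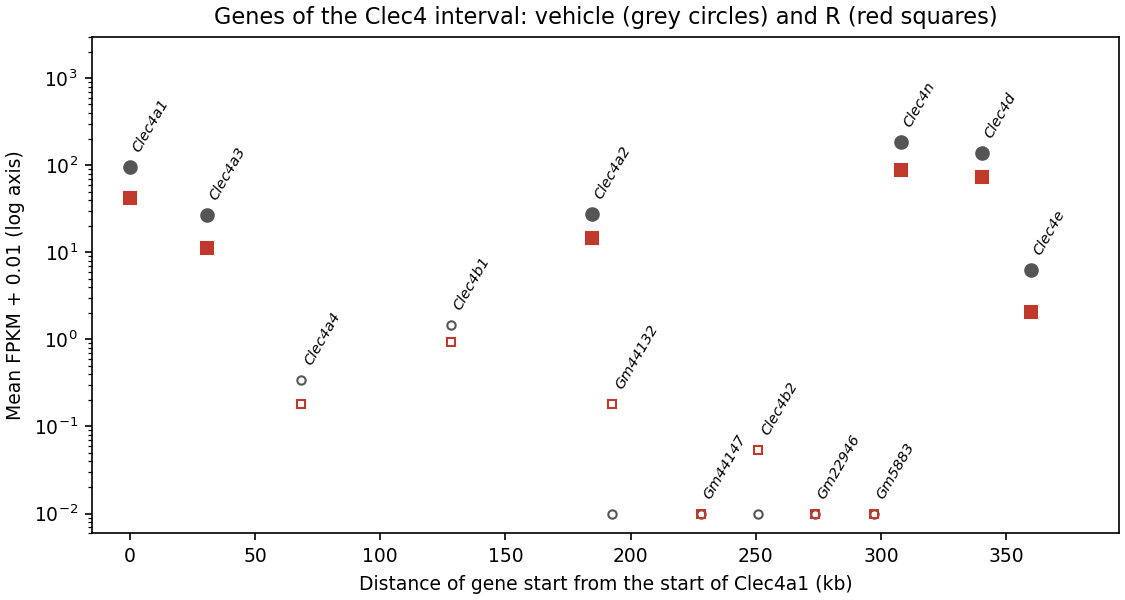
Mean FPKM + 0.01 (log axis, n = 2 per group) of the 13 genes of the Clec4 interval against the distance of their starts from that of Clec4a1, with filled symbols for the 6 listed lectins and open symbols for the other genes. The 6 lectins are lower in R (squares) than in vehicle (circles), and every other gene has a mean below 2 FPKM.

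Of 24 genes known to be induced through Dectin receptors 15 were tested, 11 had log2 fold changes below 0 and the median was -0.39. The 4 above 0 were Tnf, Egr1, Egr2 and Egr3, at 0.14, 0.19, 0.097 and 0.38. At an unadjusted p under 0.05 limma gave 7 lower and 1 higher. Il1b, which encodes interleukin 1 beta, fell, at 6.64 ± 0.580 FPKM with vehicle and 2.97 ± 0.314 FPKM with R (SD, n = 2 each, with a Benjamini-Hochberg adjusted p = 0.036 in limma). Voom called 3 of the 15 lower, Cxcl2 and Il10 besides Il1b. The limma call of Il1b was lost on the TPM scale (adjusted p = 0.0919) and without vehicle replicate 1 (adjusted p = 0.0706). Of the 15 genes, limma called 5 lower without R replicate 1, 3 without R replicate 2, 0 without vehicle replicate 1 (4 at an unadjusted p under 0.05) and 2 without vehicle replicate 2. Of 15 genes for ligands and membrane partners 14 were tested. Itgam, which encodes a chain of the integrin that binds beta-glucan and complement, fell, at 29.2 ± 2.94 FPKM with vehicle and 15.1 ± 0.0514 FPKM with R (SD, n = 2 each, with a Benjamini-Hochberg adjusted p = 0.0346 in limma). On the TPM scale the adjusted p was 0.0676 and without vehicle replicate 1 it was 0.188. Tlr2, a toll-like receptor that acts with Dectin-1, had a log2 fold change of -0.53 and was not called (adjusted p = 0.138), but it passed without R replicate 1 (adjusted p = 0.0426). Lgals9, a galactose-binding lectin, was at 42.8 ± 5.27 FPKM with R and 79.7 ± 5.67 FPKM with vehicle (SD, n = 2 each, with a Benjamini-Hochberg adjusted p = 0.0532 in limma). It was called lower on the TPM scale, after quantile normalization, with voom, with the length trend removed and without either R replicate. Of the 14 partners limma called 7 lower without R replicate 1, 2 without R replicate 2, 0 without vehicle replicate 1 (2 at an unadjusted p under 0.05) and 1 without vehicle replicate 2.

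Of 18 transcription factors of macrophage genes 17 were tested, and 4 fell in limma. Among them were Irf7, Irf9 and Stat2, which carry interferon signals, with log2 fold changes of -2.79, -1.55 and -1.40. The count was 5 without R replicate 1 and 7 without R replicate 2. Cebpa, which encodes a factor of myeloid differentiation, was at 122 and 108 FPKM in R and 71.6 and 68.1 FPKM in vehicle, a log2 fold change of 0.71 that missed the threshold (adjusted p = 0.0794). It was called higher on the TPM scale, after quantile normalization, with voom, with the length trend removed and without either R replicate. Spi1, which encodes PU.1, was at 102 and 71.9 FPKM in R and 103 and 94.6 FPKM in vehicle, so the groups overlapped. Cebpb, which encodes a factor known to drive Clec4e, was at 47.8 ± 6.44 and 47.6 ± 2.79 FPKM (SD, n = 2 each). Neither was called (Benjamini-Hochberg adjusted p = 0.671 for Spi1 and adjusted p = 0.995 for Cebpb in limma).

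For each lectin the gene with the most similar deviations over the 4 libraries was sought among 7184 or 7185 tested protein-coding genes whose mean reached 5 FPKM, by Euclidean distance on the log2(FPKM + 1) scale. It was H2-Q4 for Clec4a1 (distance 0.0701), Cd72 for Clec4a2 (0.0150), Kng1 for Clec4a3 (0.0270) and Ifi35 for Clec4d (0.0472). For Clec4e it was Irgm1 (0.106), for Clec4n Srgn (0.0614), for Clec7a Anpep (0.0350) and for Clec5a Rap1a (0.0142). Within the group, Clec4a1 and Clec4a3 were closest to each other (0.0912), and 2 genes outside it were closer to each of them. For Clec5a the nearest lectin was Clec7a at 0.377, and 2557 other genes were closer. With 4 libraries such distances describe these samples only.

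Over all genes limma called 167 lower and 42 (0.345%) higher in R, so 79.9% of calls were lower. This share depended on the setting. It was 74.9% after quantile normalization, 73.6% with voom, 59.5% with the gene length trend removed and 53.1% with the replicate number as a block. Counts with 1 library left out are given below. On the TPM scale 68.1% were lower and the median of all tested genes moved to 0.13. Relative to that median the lectins had a median of -0.98, with Clec4e at -1.48 and Clec5a at -0.40.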

How the data were processed

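Total RNA of 4 mouse libraries, 2 given R and 2 given vehicle, had been sequenced, and the authors deposited 1 table of FPKM values per gene and library, per the file headers. Its 10 further columns are empty and were not used. GRCm38, mm10 and edgeR 3.18.1 are named per the submitters' processing notes, with no role stated. For the aligner, the counting tool, the annotation and any filter, nothing is given in the sources used here.

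Gene identifiers were matched to GENCODE M21 (54495 matched, 37 did not). FPKM times exon length gave whole reads, within 0.02, for 96.3 to 96.4% of values above 0, which gave the recovered reads. The 12176 genes whose mean reached 1 FPKM were fitted as log2(FPKM + 1) in limma 3.58.1 (R 4.3.3) with a variance trend, 2 residual degrees of freedom and Benjamini-Hochberg adjustment at 0.05. An exact test of 2 against 2 libraries could not pass that threshold. On simulated libraries (12047 genes) the fit recovered 92.6% of changes of 1 and 100% of changes of 2 on the log2 scale. Of 215 calls 30 were false, a larger share than the 0.05 aimed at. The simulated counts were independent between libraries and had the same relative spread (dispersion) in every gene. Recovery in the real libraries, whose spread differed between genes, was not measured and may be lower.

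The 8 genes and the 11 lists with 248 entries were chosen with earlier results of these data known. Named were all 8 genes, fixed checks (Clec4b1, Clec10a, Clec12a, Mrc1, Fcer1g, Tyrobp, Syk, Card9, Ptpn6, Spi1, Cebpb, Csf1r, Adgre1, Ptprc, Lyz2 and Tlr2) and, per list, up to 6 called genes or the 2 with the smallest p. Of these, 2 genes are not reported here. Gabarapl1, Clec4a4, Cxcl12, Lepr, Thy1, Camp, Cd248, Thbd, Cxcl2, Il10, Cebpa, Lgals9, Col1a1, Col1a2, Ebf1, Pdgfrb and Prrx1, and the neutrophil genes listed at 0, were named after their values were seen. The same holds for Tnf, Egr1, Egr2 and Egr3. Promoter windows came from RefSeq (GRCm38.p6). In all, 11 alternatives were tried. Of the endothelial and erythroid list Pecam1 and Cdh5 were tested, and of the dendritic cell list Tcf4. Limma called 0 of these, with 0 at an unadjusted p under 0.05 and 0 by voom. Of the T, NK and B cell list Cd4 was tested (log2 fold change -0.29), with an unadjusted p under 0.05 in limma and no call by limma or voom.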

Additional observations from a re-analysis of the deposited data

How the results depend on the processing

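All 88 log2 fold changes of the 8 lectins under the 11 alternatives were below 0, and 7 of them moved by more than the spread between replicates. Much of this agreement in sign was fixed in advance. Both R libraries were below both vehicle libraries in all 8, so leaving 1 library out could not change a sign. The fits without a filter and with the replicate block repeat the fold changes of the main fit. The median of the 8 lectins, -0.98, ranged from -1.20 to -0.81 when 1 library was left out. Genes called higher and lower over all, 42 and 167, became 0 and 0 without a filter on low values (limma, 2767 at an unadjusted p under 0.05), 85 higher with voom, and 225 and 330 with the gene length trend removed. When 1 library was left out they ranged from 96 to 438 and from 193 to 665. Omitting R replicate 1 gave 312 higher and 665 lower, and omitting R replicate 2 gave 438 higher and 410 lower. For vehicle replicate 1 the counts were 96 higher and 193 lower, and for vehicle replicate 2 they were 150 higher and 259 lower. The causes were not tested.

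Among the other C-type lectin receptors, 0 called lower and 0 higher became 0 and 1 on the TPM scale, 1 and 1 after quantile normalization, 2 and 2 with voom and 2 and 2 with the length trend removed. They ranged from 0 to 4 and from 0 to 4 when 1 library was left out. Among signalling genes, 0 called lower became 1 after quantile normalization, 1 with voom and 3 with the length trend removed. It ranged from 0 to 6 when 1 library was left out, and the count of higher genes from 0 to 1.

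Replicate numbers are shared between the groups, but no label says that they pair samples. The deviations of same-numbered libraries correlated at 0.353 over genes. With the replicate number as a block, 891 genes were called higher and 1009 lower, as were 5 other lectin receptors lower and 4 higher, and 5 signalling genes lower and 1 higher. The block called 13 macrophage markers, 9 transcription factors, 7 Dectin-induced genes and 6 partners lower, and 4 stromal markers and 1 transcription factor, Cebpa, higher. It gave adjusted p = 0.00419 for Fcer1g, adjusted p = 0.000549 for Clec12a, adjusted p = 0.0275 for Clec10a and adjusted p = 0.0078 for Tlr2. The block leaves 1 residual degree of freedom per gene, against 2 in the main fit. These adjusted p therefore rest largely on a variance estimated across genes. A group left with 1 library was assumed to vary like the other group. Of the 396 values of the 36 other genes that the naming rule took, 24 lost and 36 gained a call. Precision is limited by 2 libraries per group. It is also limited by read numbers for Clec4e (179 to 588 per library), Clec4a3 (245 to 650) and Clec5a (349 to 459).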
